A study of Mus musculus with 2 samples.

Results

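The small RNAs described here came from the start of L1 (LINE-1), a retrotransposon of the mouse genome, and were measured in fetal testis with and without Hsp90α. Their reference was an L1 sequence read as the reverse complement of the GENCODE transcript of Gm47578, whose exons come from 2 separate places of chromosome 10. A member was a sequence of 16 to 36 nt that was neither miRNA nor structural RNA and whose best placement on either strand of this sequence, with at most 2 mismatches, had its 5′ end at positions 1 to 600. This gave 5756 distinct sequences of the 1132769 in both libraries together, with 18238 reads in WT and 8252 in Hsp90α KO. Of them 4512 occurred in WT, 2371 in KO and 1127 in both. The rest of the same L1, beyond position 600, held 41914 sequences with 97286 and 37720 reads.

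The study asked whether HSP90α, a chaperone encoded by Hsp90aa1, is needed for piRNAs in the fetal male germ line. Small RNA was sequenced from whole testes of C57BL/6 mice at embryonic day 16.5 (E16.5), with 1 library per genotype (WT and Hsp90α KO) and 20 testes pooled for each. The KO allele and its deleted part are not given in the sources used here. There was no replicate library of either genotype, so the intervals and exact tests given below compare the reads of these libraries and not the genotypes.

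piRNAs are small RNAs that guide PIWI proteins, in the mouse fetus MILI and MIWI2, to transposon transcripts in prospermatogonia. In the ping-pong cycle a piRNA that begins with uracil directs the cut of an RNA of the other strand, and the cut leaves a new 5′ end opposite position 10 of the guide. The partners therefore overlap by 10 nt, and the RNA made by the cut often has adenine at its own position 10. The 5′UTR of a mouse L1 holds the promoter, which is built of tandem repeats called monomers followed by a linker before ORF1.

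In the reference, the bases up to position 208 were the first monomer, 209 to 407 the second, 408 to 598 the linker, and ORF1 began right after it. The monomers matched at 176 of 199 aligned bases (88.4%). Positions 1 to 439 lie at chr10:99890720-99891158 and the remainder at chr10:99719143-99724749 on GRCm38, both on the minus strand and antisense to the 2 exons of Gm47578, which are separated by 165970 bases. Whether both places belong to a single L1 copy is not known, and the join at position 439 lies inside the linker. L1 is present in very many copies, so a position says where an RNA fits this reference and not which copy it came from. In WT, 42.4% of the reads matched the reference without mismatch, 28.8% with 1 and 28.9% with 2. Reads with more than 1 best placement made up 3.89% in WT and 3.56% in KO. An antisense RNA extends from its 5′ end toward position 1, so an antisense RNA of 24 nt or more that begins at a lower position than 24 could not be placed.

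The 10 5′-end sites with the most 24–33-nt reads are shown first, since they held 60.2% of these reads in WT and 65.1% in KO. Each is named by its strand and the position of its 5′ end, and is represented by its most read sequence of at most 30 nt, written 5′ to 3′ with the first and the tenth base in capitals.
sense 173: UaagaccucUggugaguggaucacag
sense 20: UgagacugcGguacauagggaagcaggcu
sense 211: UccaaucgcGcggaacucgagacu
sense 114: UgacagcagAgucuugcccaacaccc
sense 315: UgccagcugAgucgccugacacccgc
antisense 381: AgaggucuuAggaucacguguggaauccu
antisense 220: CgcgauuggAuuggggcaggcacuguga
sense 19: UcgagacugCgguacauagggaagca
sense 84: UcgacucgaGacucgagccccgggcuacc
sense 3: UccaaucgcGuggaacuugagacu
All 8 sense sequences began with U and both antisense sequences had A at position 10, but among the sense sequences those at 114 and 315 carried both bases. The sequences at 20 and 315 and that of antisense 381 matched the reference exactly. The others differed from it at 1 or 2 bases, written with the reference base, the position from the RNA's 5′ end and the base of the RNA, as C3A at sense 114, U2C at sense 19, C15G at sense 84, and U7C and A11U at sense 3.

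The 10-nt partners of sense 173, sense 20 and antisense 381 are shown because the first 10 bases of an RNA and of its partner pair with each other, and antisense 220 above is the partner of sense 211.
antisense 182: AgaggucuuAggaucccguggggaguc
antisense 29: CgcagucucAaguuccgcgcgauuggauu
sense 372: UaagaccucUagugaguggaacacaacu
Antisense 182 and antisense 381 lie at the same place of the first and the second monomer, as do sense 173 and sense 372.

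Counts were normalised to the miRNA reads of each library, 2523084 in WT and 2561491 in KO out of 6409305 and 5589326 reads. Mir10b alone made up 55.9% and 55.2% of these miRNA reads. The limit that a count of 0 allows (3 reads) was 4.68e-05% of the WT and 5.37e-05% of the KO library, and all intervals and limits cover counting error only, since reads without molecular identifiers are not independent molecules. Germ cells were represented by the miR-290 cluster, of which 7 of 9 members were detected, with 2024 and 2661 reads and a KO/WT ratio of 1.30 (95% interval 1.22 to 1.37). Mir202 of gonadal supporting cells had a ratio of 1.07, the mesenchymal list (2 of 3 detected) 0.812 and the blood list (3 of 3) 0.799, and the part of cell composition in the L1 values was not tested. In whole testes, fewer cells of a type and less RNA per cell cannot be told apart. Sense fragments found only in Hsp90aa1 numbered 2 reads in WT and 10 in KO, which does not check the KO label.

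RNAs of 24 to 33 nt, the length of fetal piRNAs, made up 88.7% of the member reads in WT and 86.7% in KO, and they were lower in KO on both strands. They numbered 16175 reads in WT and 7156 in KO, or 6411 and 2794 per 1000000 miRNA reads, a KO/WT ratio of 0.436 (0.424 to 0.448). Sense RNAs fell from 12244 to 5987 reads, a ratio of 0.482 (0.467 to 0.497). Antisense RNAs fell from 3931 to 1169 reads, a ratio of 0.293 (0.274 to 0.313). The antisense ratio was 0.608 times the sense ratio (exact Fisher test, p = 1.37e-43, and 3.44e-43 after Benjamini-Hochberg adjustment over the 40 tests made here). The antisense share of the reads was thereby 24.3% in WT (Wilson 95% interval 23.6 to 25.0) and 16.3% in KO (15.5 to 17.2).

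The monomers held 88.8% of the 24–33-nt reads in WT and 90.4% in KO, and the strand difference was present both in them and in the linker. In the first monomer the KO/WT ratio was 0.490 for 7692 and 3829 sense reads and 0.321 for 1365 and 445 antisense reads. In the second monomer it was 0.488 for 3210 and 1590 sense reads and 0.284 for 2104 and 607 antisense reads. The linker, which is present once per L1, had ratios of 0.420 for 1303 and 556 sense reads and 0.251 for 459 and 117 antisense reads. In tests added after seeing the data, the antisense ratio was 0.610 times the sense ratio in the monomers (exact Fisher p = 9.65e-39, adjusted 2.27e-38) and 0.598 times in the linker (p = 4.76e-06, adjusted 9.01e-06). The monomers differed in strand, with an antisense share of 15.1% (14.3 to 15.8) in the first and 39.6% (38.3 to 40.9) in the second in WT. These shares do not cover the same places, since antisense RNAs of this length could not be placed below position 24. The matching places of the second monomer held antisense 220 and antisense 225, with 553 and 74 WT reads.

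The reads were concentrated at few 5′ ends. Of 591 sites, 44 had at least 50 reads in both libraries together, and they held 84.0% of the WT and 86.2% of the KO reads. No KO/WT ratio of the 44 reached 1, and the interval lay below 1 at 42. The ratio was under 0.5 at 32 of the 44, where over the whole L1 79.2% of 437 such sites were under 0.5. On the sense strand 19 of 30 sites were under 0.5, with a median ratio of 0.479, beside 68.7% over the whole L1. On the antisense strand 13 of 14 were, with a median of 0.254, beside 93.5%. These shares are near those of the whole L1.

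Sense 173 was the largest site, with 1941 reads in WT and 1078 in KO, or 12% and 15.1% of the 24–33-nt reads, and a ratio of 0.547 (0.507 to 0.590). Its reads had 2 length groups, with 20.0% of 26 nt and 33.6% of 27 nt, and again 22.6% of 30 nt and 11% of 31 nt, while 29 nt held 2.73% in WT. The same groups were present in KO, with 28.6% of 27 nt and 25.6% of 30 nt. Sense 20 had 1658 and 698 reads and the lowest ratio of the 8 sense sites, 0.415 (0.379 to 0.453), and its main length was 29 nt (40.5% of WT reads). Sense 19, which begins 1 nt upstream, had 439 and 209 reads, a ratio of 0.469 (0.396 to 0.554) and lengths of 26 nt (41.0%) and 25 nt (39.2%).

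Sense 211 had 1350 and 703 reads and a ratio of 0.513 (0.468 to 0.562), and was the shortest of the large sites, with 74.0% of its WT reads at 24 nt. Only 9.85% of its WT reads matched the reference exactly, and the others carried 1 or 2 mismatches. The sites 114 and 315, at the same place in the first and the second monomer, had 1202 and 665 reads (ratio 0.545, 0.495 to 0.600) and 1036 and 532 reads (0.506, 0.455 to 0.562). Both were mostly of 26 nt, with 40.3% and 54.7% of the WT reads. The interval of sense 20 lay below those of sense 173, 211, 114 and 315, which overlapped each other.

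Antisense 381 had 837 reads in WT and 184 in KO, the lowest ratio of the 10 sites (0.217, 0.184 to 0.254), and none of its WT reads began with U while 99.2% had A at position 10. Antisense 220 had 553 and 230 reads and a ratio of 0.410 (0.350 to 0.479), with 3.62% U at position 1 and 100% A at position 10. The intervals of the antisense sites did not overlap each other, so these ratios differed by more than counting error. Sense 84 (364 and 177 reads, 0.479) and sense 3 (353 and 183 reads, 0.511) completed the 10, and none of their WT reads had A at position 10 or matched the reference exactly.

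More reads had an opposite site at the ping-pong distance than at any other overlap from 1 to 30 nt. In WT, 90.7% of sense and 96.4% of antisense 24–33-nt reads began at a site with an opposite site at a 10-nt overlap, and in KO 86.4% and 92.2% did. Opposite sites, of 1 read or more, were dense, so that the median share over the other overlaps was 41.9% of sense and 63.5% of antisense reads in WT, and the highest was 74.8% and 86.6%. In KO the medians were 30.7% and 53.3%. In the rest of L1 the shares at 10 nt were 75.5% and 85.1% in WT. Of all pairs of opposite reads that overlapped by 1 to 30 nt, 42.5% in WT and 45.7% in KO overlapped by 10 nt, against a mean of 1.98% and 1.87% for each other overlap. The second most frequent overlap was 27 nt, with 11.9% and 10.7%. Because a product of counts weights the largest sites, the pair sense 211 and antisense 220 gave 19% of the WT and 27.2% of the KO pairs. Without it 10 nt remained the most frequent overlap, with 29.1% and 25.4%. With exact matches alone the share was 23.5% in WT and 22.0% in KO, and with each distinct sequence counted once 21.4% and 23%.

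At most of the large pairs of sites the antisense ratio was the lower. There were 178 pairs of sites, of which 10 had at least 50 reads on each strand, and in 8 of the 10 the antisense ratio was the lower, with intervals apart in 6. In the rest of L1 the antisense ratio was the lower in 33 of 42 such pairs (78.6%), with intervals apart in 4, so the share of lower ratios was near that of the rest. Sense 173 at 0.547 faced antisense 182 with 116 and 20 reads, a ratio of 0.170 (0.100 to 0.275), the lowest of all 44 sites. Sense 20 at 0.415 faced antisense 29 with 144 and 32 reads and a ratio of 0.219 (0.144 to 0.323). Sense 114 at 0.545 faced antisense 123 with 142 and 45 reads and a ratio of 0.312 (0.218 to 0.439). As assigned to this reference, the antisense member was thus the less abundant one in each of these pairs.

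In some of the other large pairs the antisense RNA was the more abundant one. Antisense 381 at 0.217 faced sense 372 with 124 and 56 reads and a ratio of 0.445 (0.318 to 0.615). The sequences shown for sense 372 and sense 173 begin with the same 10 bases, as do those for antisense 381 and antisense 182. Which strand was the more abundant in the pairs 372/381 and 173/182 thus rests on the monomer each RNA was assigned to. Over both monomers and both libraries, these sense sites had 3199 reads and these antisense sites 1157. The pairs 78/87, 228/237, 74/83 and 573/582, named by sense and antisense position, were chosen after their values were seen. Sense 78 had 239 and 126 reads and a ratio of 0.519 (0.415 to 0.647), and antisense 87 had 346 and 89 reads and 0.253 (0.198 to 0.321). Sense 228 had 70 and 32 reads (0.450) and antisense 237 had 298 and 77 (0.255), with intervals that overlapped. In the 2 remaining pairs of the 10 the antisense ratio was the higher. Sense 74 had 61 and 24 reads (0.388) and antisense 83 had 115 and 48 (0.411), and in the linker sense 573 had 52 and 17 reads (0.322) and antisense 582 had 42 and 15 (0.352), with intervals that overlapped in both. The largest pair by the product of counts, sense 211 at 0.513 and antisense 220 at 0.410, had intervals that overlapped. Sense 315 had few reads opposite it, with 13 reads in WT and 2 in KO at its partner antisense 324. Sense 84 faced antisense 93 with 30 and 14 reads and a ratio of 0.460 (0.225 to 0.894), and sense 19 faced antisense 28 with 30 and 10 reads.

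Over the 5′UTR as a whole the bases at positions 1 and 10 separated the strands, though not in the linker. The sense 24–33-nt RNAs of WT began with U in 88.2% (87.6 to 88.7) and those of KO in 89.0% (88.2 to 89.8), where their other positions held 15.5% U in WT. They had A at position 10 in 33.3% (32.4 to 34.1) and 34.3% (33.1 to 35.5), against 26.9% at other positions. Antisense RNAs began with U in 29.2% (27.8 to 30.7) and 25.7% (23.2 to 28.2), against 23.3% at other positions, and had A at position 10 in 84.3% (83.2 to 85.4) and 83.1% (80.9 to 85.2), against 15.8%. In the ping-pong scheme described above, U at position 1 is the base of guides and A at position 10 that of cut products.

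Neither share of the sense reads differed detectably between KO and WT (exact Fisher test, U at 1 p = 0.104, adjusted 0.142, and A at 10 p = 0.156, adjusted 0.195). Of the antisense reads, the U share was lower in KO (exact Fisher p = 0.0181, adjusted 0.0258), and the A share gave p = 0.339 (adjusted 0.377). Over both strands, A at position 10 made up 45.7% in WT and 42.3% in KO (exact binomial test against 24.8% at other positions, p = 1.30e-228 in KO, adjusted 4.72e-228), and U at position 1 made up 73.8% and 78.6%. Single sites carried part of these shares. Without sense 173 the sense reads of WT had U at 1 in 85.9% and A at 10 in 39.5%, and without antisense 381 the antisense reads had 37.1% and 80.3%. The antisense pattern was strongest in the second monomer, with 11.2% U at 1 and 91.3% A at 10 in WT, against 44.9% and 81.8% in the first. In the linker, antisense reads of WT had 64.9% U at 1 (60.5 to 69.1) and 60.3% A at 10 (55.8 to 64.7). Those of KO had 53.8% and 61.5%. The A share of WT was lower than in the monomers but above the 18.9% at other positions. Within the 5′UTR the lower U shares were thus those of the monomers. They were not particular to monomers, since the stretch right after the 5′UTR, described below, had a low U share too.

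Sense and antisense RNAs also differed in length. In WT, 62.2% of the sense 24–33-nt reads were of 24 to 27 nt (61.3 to 63.0), but 25.7% of the antisense reads were (24.4 to 27.1). The most frequent sense lengths were 27 nt (19.9%) and 26 nt (19.8%), and the most frequent antisense length was 29 nt (28.6%). Sense RNAs of 24–27 nt fell from 7614 to 3582 reads, a ratio of 0.463 (0.445 to 0.482), and those of 28–33 nt from 4630 to 2405 reads, a ratio of 0.512 (0.487 to 0.538). Antisense RNAs of 24–27 nt fell from 1011 to 381 reads, a ratio of 0.371 (0.329 to 0.418), and those of 28–33 nt from 2920 to 788 reads, a ratio of 0.266 (0.245 to 0.288).

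Summed over the 5′UTR, the longer class was thus the less reduced on the sense strand and the more reduced on the antisense strand. Within strands, a split added after seeing the data, the ratio of the longer class was 1.10 times that of the shorter for sense RNAs (exact Fisher p = 0.00220, adjusted 0.00352) and 0.716 times for antisense RNAs (p = 4.95e-06, adjusted 9.01e-06). With both strands pooled it was 0.920 (exact Fisher p = 0.00367, adjusted 0.00544), a value that mixes these directions. Neither difference was even across the parts of the 5′UTR. Among sense RNAs, those of 28–33 nt rose from 44.6% (WT) to 48.0% (KO) of the first monomer's reads. The linker had 51.9% and 55.8%, with overlapping intervals, and the second monomer 15.9% in each library. The antisense share of 28–33 nt fell from 76.6% in WT to 65.9% in KO in the second monomer. In the linker it fell from 69.7% to 61.5%, but in the first monomer it was 72.2% and 71.0%. The lowest ratio of any length was that of antisense RNAs of 29 nt, which had 1123 and 239 reads (0.210, 0.182 to 0.241). Antisense 381, the largest antisense site, had 45.2% of its WT reads at 29 nt and 35.5% at 28 nt. The length ratios were not computed without it. Nor were they computed without sense 173, the largest sense site, whose own reads shifted toward longer lengths. Its share of 27 nt fell from 33.6% to 28.6%, and its share of 30 nt rose from 22.6% to 25.6%. How far the sense difference rests on that site was therefore not tested. Fragments of structural RNAs had ratios of 0.975 at 24–27 nt and 0.794 at 28–33 nt, and the part of a length difference between the libraries in the L1 values was not tested. In tests also added after seeing the data, the antisense ratio was below the sense ratio in both classes, 0.801 times at 24–27 nt (exact Fisher p = 4.31e-04, adjusted 7.50e-04) and 0.520 times at 28–33 nt (p = 1.41e-45, adjusted 3.75e-45).

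The monomers, which matched at 88.4% of their aligned bases, did not give equal numbers of reads at the same place. Of the places in the repeat, called phases here, 29 had at least 50 reads over both monomers, and 8 of these had at least 50 reads in each monomer, 13 in the first alone and 6 in the second alone. Only the phase of sense 114 and sense 315 was nearly balanced among the 6 largest, with 1202 and 1036 reads in WT. Sense 173 had 1941 reads where its counterpart sense 372 had 124, and sense 20 had 1658 where sense 228 had 70. Sense 211 of the second monomer had 1350 reads against 353 at sense 3. On the antisense strand 381 had 837 reads against 116 at 182, and 237 had 298 against 144 at 29. The counterparts of antisense 220 and antisense 225 lie at 12 and 17, where no antisense RNA of this length could be placed. Which monomer an RNA was assigned to rests on the bases that differ between the monomers of this reference, and L1 copies may carry other combinations.

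In the linker no site was among the 10 largest, and the following sites were chosen after their values were seen. Sense 429 had 214 and 107 reads (0.493, 0.387 to 0.624) and faced antisense 438 with 93 and 19 reads (0.201, 0.116 to 0.332), whereas the other large pair of the linker, 573/582, had the higher ratio on the antisense strand. RNAs of 24 nt or more from sense 429 cross the join at 439. Sense 523 had 179 and 77 reads and sense 530 had 158 and 71. Sense 525, with 84 and 61 reads, had the highest ratio of all 44 sites, 0.715, with an interval that included 1.

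Compared with the rest of the L1, the 5′UTR was richer in sense RNAs. The antisense share in WT was 24.3% against 46.6% (46.2 to 46.9) beyond position 600, and in KO 16.3% against 38.0%. The window of positions 1201 to 1800 was similar, with 22.6% in WT and 19.3% in KO, so a low antisense share was not particular to the 5′UTR. The KO/WT ratio of the 5′UTR was 1.17 times that of the rest, 0.436 against 0.371 (exact Fisher p = 1.35e-24, adjusted 3.01e-24). Within strands, again a split added after seeing the data, the factor was 1.12 for sense RNAs, 0.482 against 0.431 (exact Fisher p = 4.98e-10, adjusted 1.05e-09), and 0.968 for antisense RNAs, 0.293 against 0.302, which was not a detectable difference (p = 0.368, adjusted 0.388). Of 10 consecutive windows of 600 nt, the first had the highest ratio over both strands, but only the third highest for sense RNAs, where the window starting at 4201 had 0.524.

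The 5′UTR differed from the rest in length and base composition of its RNAs. Sense RNAs of 24–27 nt made up 62.2% of its sense reads against 31.3% in the rest, and the highest share in any other window was 43.7%. Its sense reads began with U more often, 88.2% against 74.6% (exact Fisher p = 1.13e-250, adjusted 4.52e-250). Its antisense reads had A at position 10 in 84.3% against 61.6% (exact Fisher p = 7.06e-198, adjusted 2.35e-197) and U at position 1 in 29.2% against 67.2%. The 10 largest sites of each strand held 71.8% of the sense and 69.5% of the antisense reads in WT. These tests thus count reads of few sites, which mostly share their bases. The next window, which holds the start of ORF1, came nearest, with 78.2% A at 10 and 31.1% U at 1 among antisense reads. Within the 5′UTR the antisense difference from the rest lay in the monomers. The shares of the linker, 60.3% A at 10 and 64.9% U at 1, were near those of the rest.

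Shorter RNAs of 19 and 16 nt, which the study examined as remnants of the ping-pong reaction, were scarce in the 5′UTR. The most read of them are shown for comparison with the sites above.
19-nt sense 296: cucgagccccgggcuaccu
19-nt antisense 201: gcacugugguccacucacc
16-nt sense 173: uaagaccucuggugag
16-nt sense 372: uaagaccucuagugag
RNAs of 19 nt had 152 reads in WT and 127 in KO, a ratio of 0.823 (0.645 to 1.05, exact binomial p = 0.106, adjusted 0.142), so that no difference was detectable at this depth. RNAs of 16 nt had 313 and 204 reads, a ratio of 0.642 (0.536 to 0.768, exact binomial p = 7.63e-07, adjusted 1.53e-06), but with each distinct sequence counted once the ratio was 0.810 and the difference was no longer detectable (exact binomial p = 0.226).

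Most 19-nt RNAs lay directly upstream of a 24–33-nt RNA, but in WT most shared a 5′ end with such an RNA as well. In WT, 82.1% of the 106 sense reads and 82.6% of the 46 antisense reads ended 1 nt before the 5′ end of a 24–33-nt RNA of the same strand, and in KO 85.5% of 83 and 56.8% of 44 did. In the rest of L1 the WT shares were 84.1% and 71.6%, which did not differ detectably from those of the 5′UTR (exact Fisher p = 0.582 for both raw and adjusted sense values, and p = 0.125, adjusted 0.161, for antisense). A 5′ end shared with a 24–33-nt RNA was also frequent, at 67.9% of the sense and 60.9% of the antisense 19-nt reads in WT. In the rest of L1 those shares were 84.5% and 70.4%. Shares at other distances were not computed, so the upstream placement has no background to be set against. The 19-nt site at sense 296 had 30 reads in WT and 29 in KO and ended right before sense 315, where 1036 and 532 longer reads began. The ratios were 0.952 (0.551 to 1.64) for the former and 0.506 for the latter. The 19-nt site at antisense 201 (10 and 10 reads) ended right before antisense 182, and that at sense 209 (11 and 5 reads) before sense 228.

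Most sense 16-nt reads of the 5′UTR came from a single site that was placed differently. Sense 173 gave 185 and 124 of the 16-nt reads, 59.1% and 60.8% of all of them, and no 24–33-nt RNA began at position 189, right after them. Its sequence is the start of the most read RNA of the largest piRNA site. With this site, 29.6% of 280 sense WT reads of 16 nt ended 1 nt before a 24–33-nt RNA. Without it, an alternative added after seeing the data, 87.4% of 95 reads did (79.2 to 92.6), beside 86.4% of 954 reads in the rest of L1. The 16-nt RNA of sense 372, with 38 and 26 reads, likewise began with the longer RNAs of that site, 124 in WT and 56 in KO. Only 3 reads in WT and 1 in KO of 24–33 nt began right after it. Its 38 WT reads are among the 95 and count as upstream through those 3 reads alone, so the 87.4% rests partly on a site like sense 173. The third largest, sense 212, had 9 reads in WT and 1 in KO. Without sense 173, also added after seeing the data, the KO/WT ratio of 16-nt RNAs was 0.616 (exact binomial p = 6.48e-04, adjusted 0.00108).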

How the data were processed

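The authors extracted total RNA from 20 whole testes per genotype, made TruSeq small RNA libraries, sequenced them on a MiSeq, clipped the adaptor and deposited raw counts, the number of reads of each distinct sequence of 11 to 48 nt, without normalization. The submitters' processing notes name mm9. The deposited counts carry no mapping, so no mm9 coordinate was used.

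Sequences of 16 to 36 nt were matched exactly to GENCODE release M21 transcripts (GRCm38) to set aside miRNAs (sense) and structural RNAs. The others were placed without gaps on the L1 reference on both strands with at most 2 mismatches, and ties went to the lowest position, sense first. The libraries held 6409305 (WT) and 5589326 (KO) reads.

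Counts were normalised to miRNA reads, as the study did. KO/WT ratios have Clopper-Pearson 95% intervals from exact binomial tests, shares Wilson intervals, and ratios or shares were compared with exact two-sided Fisher tests, all adjusted by Benjamini-Hochberg over 40 tests. Base shares were compared with the mean of the other positions up to 24. Named sites were the 10 with the highest summed normalised 24–33-nt reads, their 10-nt partners, and the 3 largest sites of 19 and of 16 nt. Members and lists were chosen with earlier results of these data known. Samples were grouped by their titles. The statistics were tested on simulated data. Alternatives changed the normaliser, mismatches, placement, minimum reads, counting of distinct sequences and the largest site. Placement used numba 0.67.0, tests scipy 1.17.1 and tables pandas 2.3.3 with numpy 2.4.6, under Python 3.11.15.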

Additional observations from a re-analysis of the deposited data

Results flagged for a closer look

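Outside the lengths compared above, RNAs of 17 nt on the antisense strand at position 29 stood above the 3 reads that a count of 0 allows, with 89 reads in WT and 56 in KO, a KO/WT ratio of 0.620 (95% interval 0.436 to 0.875). This site was chosen after its values were seen. Its most read sequence is shown because it resembles the start of antisense 29, with the reference base, position and RNA base of its differences being C16U and U17G.
17-nt antisense 29: cgcagucucaaguucug
It held 52.0% of all 17-nt reads in WT, and its reads began where 64 WT and 34 KO sense reads of 27 nt from position 3 ended. The base right after it is position 12, where antisense RNAs of 24 nt or more could not be placed. The corresponding 17-nt RNA of the second monomer, at antisense 237, had 27 and 7 reads and ended right before antisense 220, with 553 and 230 reads. With 1 library per genotype, no value could be compared with the spread between samples.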

How the results depend on the processing

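For 16 results 104 alternative values were computed, of which 88 kept their direction and their side of the threshold or stayed within the range set for counts and shares. The KO/WT ratio of the 24–33-nt RNAs ranged from 0.421 to 0.507, that of the sense RNAs from 0.469 to 0.561 and that of the antisense RNAs from 0.278 to 0.392, and the antisense over sense quotient from 0.520 to 0.801. The pooled length quotient was 1.003 with exact matches only and 0.905 with each distinct sequence counted once, and with sense reads alone, an alternative added after seeing the data, it was 1.10. The quotient of the 5′UTR over the rest of L1 was 0.968 with antisense reads alone, also added then. Counting each distinct sequence once gave 0.810 for 16-nt RNAs, which no longer passed the test. Sites under 0.5 numbered 14 with exact matches and 5 with distinct sequences, where fewer sites reached 50 reads. The 10-nt overlap share in WT was 23.5% with exact matches, 40.0% with 1 best placement, 48.3% with at least 2 reads, 21.4% with distinct sequences and 29.1% without the largest pair, and in KO 22.0%, 53.3% (at least 2 reads), 23% and 25.4% in the same order, without the single placement. For the other moved values the cause was not tested. No paired analysis was possible because each genotype has 1 library, and no replicate could be left out. A single reference, joined from 2 places that may be different L1 copies, and the 2-mismatch limit decide which L1 RNAs count as members, and RNAs of more divergent copies were not analysed here.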
